A study of Rattus norvegicus with 24 samples.

Results

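The 8 genes described here, taken from the acute phase response and chemokine signalling, were followed across 6 compounds in rat liver. They are Hp, Lbp, Cxcl1, Cxcl14, Orm1, Crp, A2m and Fgb. They were chosen by name, as every array probe that carries the gene's current or older symbol or its RefSeq record. Of these 8 genes, 7 had probes by that rule (13 probes in all, each passing the filter on dim signals), and the 7 were tested among 11590 genes. A2m was not analysed here.

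The study treated male F344 rats, labelled as 5 weeks old, by gavage at 5 ml/kg once a day for 28 days, and profiled liver RNA on Agilent 2-colour arrays. The doses in mg/kg/day were 500 for hexachloroethane, 50 for the solvent 1,2,3-trichloropropane, 150 for the dye 1-amino-2-methylanthraquinone and 250 for the herbicide 3-(4-chlorophenyl)-1,1-dimethylurea, known as monuron. The design text classes these 4 as carcinogens, and it counts tetracycline hydrochloride (dose 1000) and 1,2-dichlorobenzene (dose 300) as non-carcinogens. Each of the 24 arrays held 1 treated rat (4 rats per compound) against a pool of 4 vehicle rats; the vehicle was corn oil for 5 compounds and water for tetracycline.

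The acute phase response is the liver's change in plasma protein output during inflammation or injury. Cytokines released by macrophages, above all interleukin 6 and interleukin 1, act through STAT3, NF-kB and C/EBP factors in hepatocytes. Positive acute phase proteins are then made in larger amounts, while negative ones such as albumin are made less. Chemokines are small secreted proteins that direct the movement of leukocytes, and stressed hepatocytes, macrophages and stromal cells of the liver can release them. In the rat, A2m and Orm1 are strongly inducible, whereas Crp is present in plasma constitutively.

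All values are log2 ratios of treated over vehicle signal on the same array, so 0 means equal signal and 1 means a doubling. Differences were tested with limma on all genes with Benjamini-Hochberg adjustment, and a gene was called at an adjusted p under 0.05. The vehicle pool counts as 1 control sample and its own spread is left out of these tests. Vehicle RNA always carried Cy5 and treated RNA Cy3, so a dye effect stays in each ratio. The part of it that is alike on all arrays cancels between compounds, and a part that differs between slides does not. Each compound was run on a slide of its own, and slide and compound cannot be told apart. In whole liver, fewer cells of a type and less RNA per cell cannot be told apart.

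The arrays were similar in quality, with a signal well above background for 59.7% to 71.7% of probes in treated RNA and for 64.2% to 75.9% in vehicle RNA. The 12 hepatocyte markers on the list (among them Alb, Apob, Cps1 and Hnf4a) were all measured, and none failed the background flag in treated RNA on every array. The correction for signal-dependent dye bias matters for these genes. With median centring of each array in its place, the median of all genes tested lay between -0.34 and -0.21 in the 6 comparisons with vehicle, against -0.02 to -0.01 with the loess correction. Directions that turn under that setting are named beside the values.

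After hexachloroethane, 4 of the 7 genes were called lower than vehicle, beside 24.7% of all genes. None was called higher by limma, beside 18.8% of all genes; 1 was higher at an unadjusted p under 0.05. Cxcl14 alone passed a call and a 2-fold change, beside 0.906% of all genes. The median of the 7 ratios was -0.46, and that of all genes -0.02.

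After 1,2,3-trichloropropane, 1 of the 7 was higher and 4 were lower, beside 20.8% and 25% of all genes. Cxcl1 and Hp changed by 2-fold or more there, beside 0.932% of all genes. After 1-amino-2-methylanthraquinone, 3 were higher and 2 lower, beside 27.7% and 31.1% of all genes, and the higher genes were Lbp, Cxcl1 and Orm1. Lbp and Cxcl1 were past 2-fold, beside 2.12% of all genes. This was the compound with the most of the 7 called higher, and the median of the 7 ratios was 0.22. With median centring the means of Orm1, Hp and Fgb changed direction there, and so did the median of the 7.

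Monuron had 1 of the 7 higher and 4 lower, beside 19.9% and 26.2% of all genes, and none past 2-fold, beside 1.4% of all genes. Under 1,2-dichlorobenzene 5 were lower, beside 26.6% of all genes, and Hp alone passed 2-fold, beside 1.6% of all genes. Tetracycline had 4 lower, beside 21.8% of all genes, and none past 2-fold, beside 0.285% of all genes. For both non-carcinogens limma called none of the 7 higher, beside 25.1% of all genes for 1,2-dichlorobenzene and 15.7% for tetracycline, and at an unadjusted p under 0.05 the number higher was 0 for each. With 7 genes these shares are coarse, and no call is read from them for the set.

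**Figure D1:**
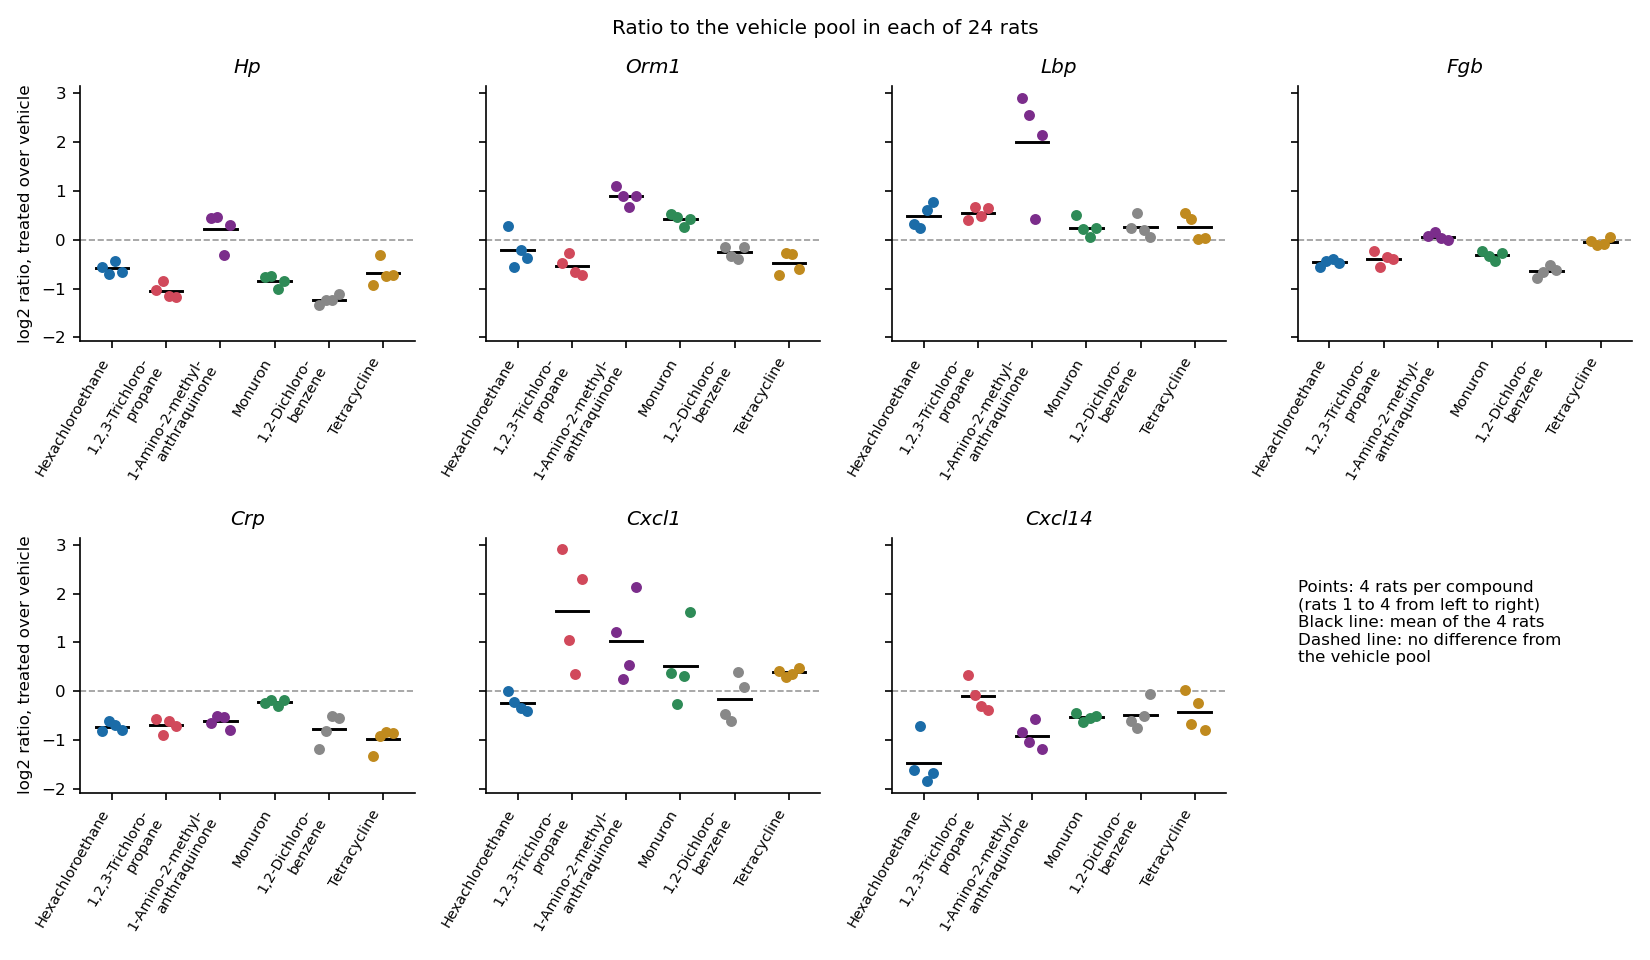
Log2 ratio of treated over vehicle signal (y axis) for the 7 genes measured, with 1 point per rat and a bar at the mean of the 4 rats of each compound (x axis). Lbp is highest in rats given 1-amino-2-methylanthraquinone (2.14 to 2.90 in 3 of 4), and Cxcl14 lowest in 3 of the 4 given hexachloroethane (-1.84 to -1.61); the means above 0 of Hp, Orm1 and Fgb under 1-amino-2-methylanthraquinone and of Orm1 under monuron turn below 0 with median centring, as do those of Lbp under hexachloroethane, monuron, 1,2-dichlorobenzene and tetracycline.

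Hp encodes haptoglobin, the plasma protein that captures free haemoglobin and a positive acute phase protein. In the rats given 1,2-dichlorobenzene its ratios were -1.34, -1.23, -1.23 and -1.12, a mean of -1.23 ± 0.09 (SD, n = 4), or 2.35-fold lower than vehicle (limma adjusted p = 2.34e-09). After 1,2,3-trichloropropane the ratios were -1.03, -0.85, -1.15 and -1.18, which is 2.07-fold lower (adjusted p = 6.20e-08). All 8 rats of these compounds thus lay at or below -0.85, and their ranges overlapped.

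Monuron gave Hp ratios of -0.76, -0.74, -1.01 and -0.85 (mean -0.84 ± 0.12, adjusted p = 8.30e-07). Tetracycline gave -0.92, -0.31, -0.74 and -0.72 (mean -0.67 ± 0.26, adjusted p = 2.32e-05), and hexachloroethane -0.55, -0.70, -0.44 and -0.66 (mean -0.58 ± 0.12, adjusted p = 6.87e-05). Hp therefore fell under 5 compounds. The exception was 1-amino-2-methylanthraquinone, with 0.45, 0.46, -0.32 and 0.31 (mean 0.22 ± 0.37, adjusted p = 0.0576), a value that turned to -1.13 with median centring.

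Relative to the mean of the other 5 compounds, Hp under 1-amino-2-methylanthraquinone was higher by 1.10 on the log2 scale (95% interval 0.87 to 1.32, adjusted p = 7.39e-08). Rats 1, 2 and 4 of this group lay above all 20 others. Rat 3, at -0.32, lay beside the highest tetracycline rat, at -0.31; without rat 3 the mean against vehicle was 0.40 with an adjusted p of 3.96e-04. Hp was lower than in the other compounds under 1,2-dichlorobenzene (-0.65, adjusted p = 1.24e-04) and 1,2,3-trichloropropane (-0.43, adjusted p = 0.00481).

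Orm1 encodes orosomucoid 1, or alpha-1-acid glycoprotein, a drug-binding plasma protein. In the rats given 1-amino-2-methylanthraquinone its ratios were 1.10, 0.90, 0.68 and 0.89, a mean of 0.89 ± 0.17 or 1.86-fold higher than vehicle (adjusted p = 2.27e-07), a direction that turned to -0.29 with median centring. Monuron gave 0.53, 0.46, 0.27 and 0.42 (mean 0.42 ± 0.11, adjusted p = 0.00194), which turned to -0.43 with median centring. The ranges of these 2 compounds did not overlap, and the rats given 1-amino-2-methylanthraquinone were higher than every other rat.

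Orm1 fell after 1,2,3-trichloropropane, where the ratios were -0.47, -0.28, -0.66 and -0.72 (adjusted p = 2.69e-04), and after tetracycline, where they were -0.72, -0.28, -0.30 and -0.60 (adjusted p = 9.60e-04). It was also called lower after 1,2-dichlorobenzene (mean -0.25 ± 0.13, adjusted p = 0.0462), a call that was lost when any 1 of the 4 rats was left out. After hexachloroethane the ratios ran from -0.55 to 0.29 (mean -0.21 ± 0.36, adjusted p = 0.097).

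Against the other compounds, Orm1 was higher under 1-amino-2-methylanthraquinone by 1.10 (95% interval 0.87 to 1.33, adjusted p = 1.05e-07) and under monuron by 0.54 (0.31 to 0.77, adjusted p = 0.00174). It was lower under 1,2,3-trichloropropane (-0.61, adjusted p = 3.80e-04) and under tetracycline (-0.54, adjusted p = 9.58e-04). A dye effect common to all arrays cancels in these differences, and one that differs between slides does not. The other Orm1 probe followed it over the 24 rats with r = 0.99, and its mean under 1-amino-2-methylanthraquinone was 1.10.

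The Orm1 promoter shows 2 close matches to the C/EBP motif, TTNNGNAA, read on both strands. The stretch is shown because C/EBP factors are textbook regulators of this gene. It covers chr5:81788379-81788478 on the plus strand of GRCr8 (RefSeq), from -130 to -31 relative to the start, with the matches at -123 and -111 in capitals.
Orm1 promoter: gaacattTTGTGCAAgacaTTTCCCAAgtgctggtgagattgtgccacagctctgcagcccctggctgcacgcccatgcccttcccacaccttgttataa
Of all 33469 promoters in the RefSeq table, each from 250 bases before to 50 after the start, 41.3% hold this motif, so a match is common and is given as a description.

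Lbp encodes lipopolysaccharide-binding protein, which hands bacterial lipopolysaccharide to the receptor CD14. In the rats given 1-amino-2-methylanthraquinone its ratios were 2.90, 2.55, 0.43 and 2.14, a mean of 2.00 ± 1.09 (SD, n = 4), or 4.01-fold higher than vehicle (adjusted p = 2.12e-07). Rats 1, 2 and 4 stood above all other rats of the study, while rat 3 lay among them; without rat 3 the mean was 2.53 (adjusted p = 8.10e-12). The range of this group overlapped that of 1,2,3-trichloropropane through rat 3.

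All 24 Lbp ratios were above 0, yet only 1-amino-2-methylanthraquinone was called. The SE shared by all compounds was 0.23, while the SD ran from 0.12 after 1,2,3-trichloropropane to 1.09 after 1-amino-2-methylanthraquinone. The ratios were 0.41, 0.67, 0.49 and 0.64 after 1,2,3-trichloropropane (mean 0.55 ± 0.12, adjusted p = 0.052). After hexachloroethane they were 0.32, 0.23, 0.61 and 0.78 (mean 0.49 ± 0.26, adjusted p = 0.0897), and this mean turned to -0.09 with median centring. The means of the other 3 compounds were 0.25 or 0.26 and turned to values from -0.22 to -0.13 with median centring.

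The Lbp difference between 1-amino-2-methylanthraquinone and the other 5 compounds was 1.64 (95% interval 1.13 to 2.16, adjusted p = 1.50e-05), or 3.13-fold. The other Lbp probe gave a smaller change, with a mean of 1.11 ± 0.63 under this compound and means from -0.22 to 0.07 under the others. Both probes ranked the rats alike (r = 0.98), with a median difference between them of 0.43.

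Fgb encodes the beta chain of fibrinogen, the precursor of the fibrin clot. At the probe that stands for the gene it fell under 4 compounds by modest amounts with little spread. In the rats given 1,2-dichlorobenzene the ratios were -0.78, -0.66, -0.52 and -0.62 (mean -0.64 ± 0.11, adjusted p = 6.41e-10). Hexachloroethane gave -0.55, -0.44, -0.39 and -0.47 (adjusted p = 1.08e-07), and the means were -0.38 ± 0.13 after 1,2,3-trichloropropane (adjusted p = 1.56e-06) and -0.32 ± 0.09 after monuron (adjusted p = 1.33e-05).

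The calls for 1,2,3-trichloropropane and monuron were lost with the scanner software's own ratios. After tetracycline the Fgb ratios were -0.03, -0.11, -0.09 and 0.06 (adjusted p = 0.497), a mean of -0.04 that turned to 0.20 with the scanner's ratios. After 1-amino-2-methylanthraquinone they were 0.07, 0.15, 0.03 and 0.00 (mean 0.07 ± 0.06, adjusted p = 0.236), which turned to -1.28 with median centring and to -0.18 with the mean of the 2 probes named by the rule. Rats of the other 4 compounds lay below both of these groups.

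Fgb was higher under 1-amino-2-methylanthraquinone than under the other compounds by 0.43 (95% interval 0.33 to 0.54, adjusted p = 6.67e-07), a difference of 0.08 (adjusted p = 0.633) with median centring. Tetracycline was also higher, by 0.30 (adjusted p = 1.46e-04). The gene was lower under 1,2-dichlorobenzene (-0.41, adjusted p = 4.22e-06) and hexachloroethane (-0.20, adjusted p = 0.00647).

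Of the Fgb probes, 4 passed the filter, 2 by the rule and 2 through the UniGene cluster alone. The 2 from the cluster are shown because they read the same stretch on opposite strands. The capitals mark the 33 bases that they share, each in its own orientation.
Fgb probe 500655: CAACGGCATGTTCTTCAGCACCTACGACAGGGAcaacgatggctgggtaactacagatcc
Fgb probe 705358: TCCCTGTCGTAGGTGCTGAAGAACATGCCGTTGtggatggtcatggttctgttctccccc
Over the 24 rats their ratios followed each other with r = 0.77. Probe 500655 gave means of -0.95 for 1,2-dichlorobenzene and -0.08 for 1-amino-2-methylanthraquinone, and probe 705358 gave -0.33 and 0.18. The vehicle signal of probe 705358 was far lower, at 8.58 on the log2 scale on the 1,2-dichlorobenzene arrays, against 17.86 for probe 500655. Which transcript the faint probe reads was not tested. The other probe named by the rule gave -1.26 and -0.42, so the 4 probes, the faint 705358 included, placed these compounds in the same order at different offsets. Under tetracycline that probe gave -0.69 ± 0.08, probe 500655 -0.39 ± 0.04 and probe 705358 -0.02 ± 0.07, so the value near 0 given above for this compound depends on the probe.

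Crp encodes C-reactive protein, a pentraxin that binds phosphocholine on bacteria and damaged cells. All 24 rats were below 0, and Crp was called lower under each compound. A dye effect common to all arrays stays in such a shared direction. Tetracycline gave ratios of -1.32, -0.92, -0.83 and -0.85, a mean of -0.98 ± 0.23 or 1.98-fold lower than vehicle (adjusted p = 6.99e-08). After 1,2-dichlorobenzene the ratios were -1.19, -0.82, -0.51 and -0.55 (mean -0.77 ± 0.31, adjusted p = 2.86e-07).

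The Crp signal of the vehicle pool was saturated on all 4 hexachloroethane arrays, so the size of its decrease there is not settled at this probe. The measured ratios were -0.81, -0.62, -0.70 and -0.79, or 1.66-fold lower (limma adjusted p = 9.59e-07). Another Crp probe, not saturated there, gave a smaller decrease, with a mean of -0.51. The means were -0.70 ± 0.15 for 1,2,3-trichloropropane (adjusted p = 2.06e-06) and -0.62 ± 0.13 for 1-amino-2-methylanthraquinone (adjusted p = 3.48e-06). Monuron stood apart from all of them, with -0.24, -0.19, -0.30 and -0.19.

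The monuron mean of -0.23 ± 0.05 was called against vehicle (adjusted p = 0.0351), but not when any 1 of its rats was left out, and it turned to 0.05 with the scanner's ratios. Against the other compounds Crp was higher under monuron by 0.53 (95% interval 0.33 to 0.73, adjusted p = 4.96e-04) and lower under tetracycline (-0.37, adjusted p = 0.00487). Both differences include the hexachloroethane value, which rests on saturated vehicle signal, so their exact size is not settled. Another Crp probe was also highest under monuron, with values nearer to 0, from -0.51 under hexachloroethane to 0.09 under monuron (r = 0.86 between the probes). At that probe the difference from the other 5 was -0.28 for hexachloroethane and -0.20 for tetracycline. The last Crp probe was not well above background in the treated channel of any array, and its values are not read here.

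Cxcl1 encodes a chemokine that attracts neutrophils through the receptor CXCR2. It had the widest spread of the 7 genes: rats within a compound differed with an SD of 0.70, and 46.1% of its variance over the 24 rats lay within compounds. After 1,2,3-trichloropropane its ratios were 2.91, 1.05, 0.35 and 2.29, a mean of 1.65 ± 1.16 (SD, n = 4), or 3.14-fold higher than vehicle (adjusted p = 3.67e-04). All 4 rats were above 0, and 3 of them above 1.

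After 1-amino-2-methylanthraquinone the Cxcl1 ratios were 1.22, 0.24, 0.54 and 2.14 (mean 1.03 ± 0.84, adjusted p = 0.0102), or 2.05-fold; without rat 4 the mean was 0.66 and was not called (adjusted p = 0.118). Monuron gave 0.37, -0.27, 0.32 and 1.63 (adjusted p = 0.209). Tetracycline gave 0.41, 0.30, 0.35 and 0.48 (mean 0.39 ± 0.08, adjusted p = 0.377), where the SE shared by all compounds was 0.33. Hexachloroethane (0.00, -0.23, -0.34 and -0.41) and 1,2-dichlorobenzene (-0.46, -0.62, 0.39 and 0.08) had the lowest means, and neither was called.

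The Cxcl1 difference between 1,2,3-trichloropropane and the other 5 compounds was 1.34 (95% interval 0.60 to 2.09, adjusted p = 0.00719); without rat 1 it was 0.92 and was not called (adjusted p = 0.0661). For 1-amino-2-methylanthraquinone the difference was 0.60, with an interval from -0.14 to 1.35 (adjusted p = 0.173). The ranges of all neighbouring compounds in the order of Cxcl1 means overlapped. Another Cxcl1 probe followed it with r = 0.99.

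The Cxcl1 promoter holds the NF-kB consensus, by which this chemokine is classically induced, and is shown for that reason. The stretch covers chr14:17479352-17479451 on the minus strand of GRCr8 (RefSeq), from -130 to -31 relative to the start. The capitals mark 2 overlapping matches at -84 and -83.
Cxcl1 promoter: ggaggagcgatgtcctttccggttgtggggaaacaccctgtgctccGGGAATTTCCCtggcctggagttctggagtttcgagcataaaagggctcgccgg
The NF-kB consensus, searched on both strands, is found in 7.51% of all promoters of the table.

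Cxcl14 encodes a chemokine made without stimulation in many epithelia. It was lower than vehicle in 22 of 24 rats. In the rats given hexachloroethane its ratios were -1.61, -0.71, -1.84 and -1.68, a mean of -1.46 ± 0.51 (SD, n = 4), or 2.75-fold lower (adjusted p = 2.55e-07). Rats 1, 3 and 4 lay below every other rat of the study, and rat 2 overlapped other compounds.

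After 1-amino-2-methylanthraquinone the Cxcl14 ratios were -0.84, -1.04, -0.57 and -1.18 (mean -0.91 ± 0.27, adjusted p = 4.81e-05), or 1.87-fold lower. Monuron gave -0.45, -0.63, -0.54 and -0.51 (adjusted p = 0.00904). The calls for 1,2-dichlorobenzene (mean -0.48 ± 0.30, adjusted p = 0.0143) and tetracycline (mean -0.42 ± 0.39, adjusted p = 0.04) were the weakest. The former was lost without rat 1 or rat 2, and the latter without rat 2, 3 or 4. After 1,2,3-trichloropropane the ratios were 0.33, -0.07, -0.30 and -0.39 (adjusted p = 0.607).

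Against the other compounds, Cxcl14 was lower under hexachloroethane (-0.97, 95% interval -1.33 to -0.61, adjusted p = 2.93e-04). It was higher under 1,2,3-trichloropropane by 0.65 (0.30 to 1.01, adjusted p = 0.00673), a difference of 0.51 that was not called without its rat 1 (adjusted p = 0.0516). All of these Cxcl14 values rest on 1 probe, which is shown for that reason, without capitals.
Cxcl14 probe 704281: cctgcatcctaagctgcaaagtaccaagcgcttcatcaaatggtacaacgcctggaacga
A probe tied to Cxcl14 by its UniGene cluster alone gave a mean of -1.22 ± 0.46 under hexachloroethane and means from -0.17 to 0.23 under the other 5 compounds (r = 0.85). With that probe the decrease under hexachloroethane is thus nearly as large, while the other compounds lie near 0.

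Compared with the mean of the other 5 compounds, 4 of the 7 genes differed under 1-amino-2-methylanthraquinone, all upward (Lbp, Hp, Orm1 and Fgb), beside 48.4% of all genes called in either direction. Lbp, Hp and Orm1 were past 2-fold, beside 1.29% of all genes. The median difference over the 7 genes was 0.60. Under 1,2,3-trichloropropane 4 of 7 were also called (30.6% of all genes), of which Cxcl1 was past 2-fold (0.414% of all genes).

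The other compounds showed fewer such differences. Hexachloroethane had 2 of 7 called (28.4% of all genes) and none past 2-fold (0.638%), monuron 2 (22.4%) and none past 2-fold (0.613%). For 1,2-dichlorobenzene it was 2 (31%) and none past 2-fold (0.535%), and tetracycline 3 (32.8%) and none past 2-fold (0.569%). These counts of called genes are near the shares on the whole array.

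**Figure D2:**
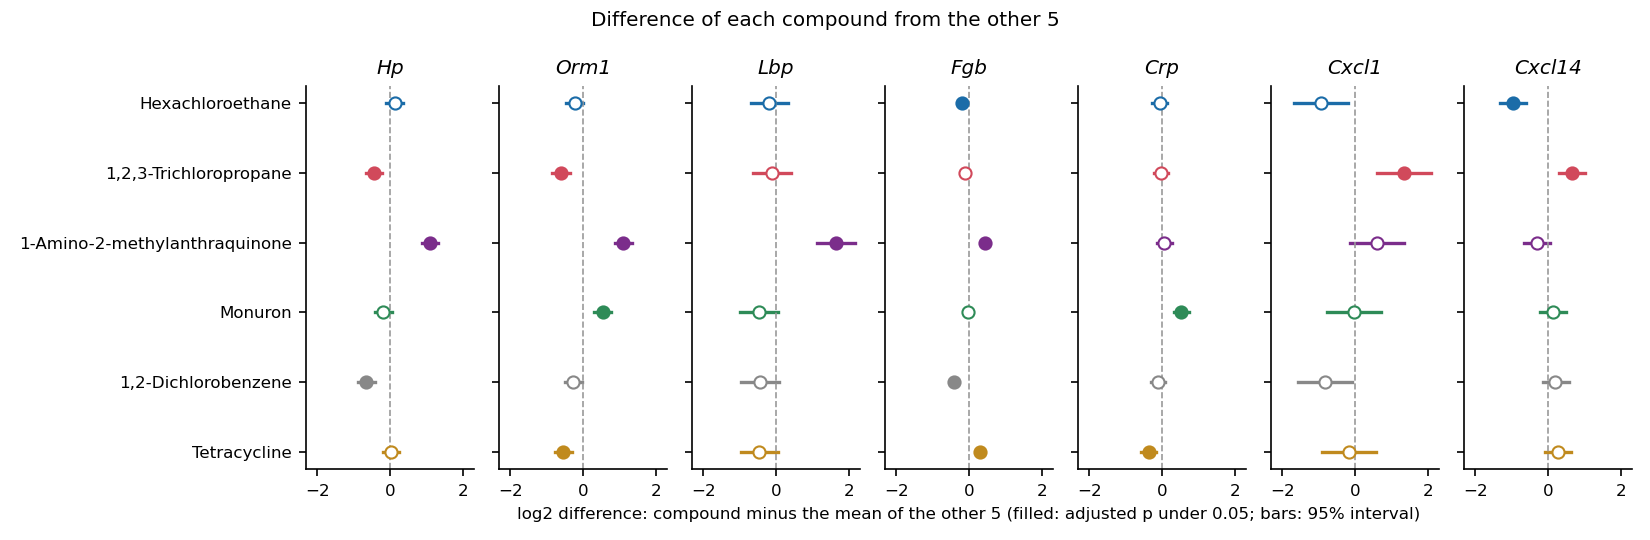
Difference in log2 ratio between each compound and the mean of the other 5 (x axis), with its 95% interval, for the 7 genes; filled points were called by limma at an adjusted p under 0.05. Lbp (1.64), Hp (1.10) and Orm1 (1.10) are highest under 1-amino-2-methylanthraquinone, Cxcl1 (1.34) under 1,2,3-trichloropropane and Cxcl14 (-0.97) lowest under hexachloroethane; the small Crp differences of 1-amino-2-methylanthraquinone, 1,2-dichlorobenzene and 1,2,3-trichloropropane change sign with median centring, and those of Cxcl1 under monuron and Hp under tetracycline with the scanner's ratios.

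Arrays of 2 pairs of compounds were scanned on the same day, which gives a comparison free of the scan day. Hexachloroethane against tetracycline had 2 of 7 genes called, beside 17.4% of all genes, and both Cxcl14 (-1.04, 95% interval -1.50 to -0.58, adjusted p = 0.00288) and Fgb (-0.42, adjusted p = 1.97e-04) were lower. Tetracycline was given in water, so vehicle and compound cannot be told apart there. Monuron against 1,2-dichlorobenzene had 4 of 7 called, all higher, beside 23.9% of all genes.

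Those 4 were Orm1 (0.67, adjusted p = 0.00184), Crp (0.54, adjusted p = 0.003), Hp (0.39, adjusted p = 0.0449) and Fgb (0.32, adjusted p = 0.00113). With median centring none of the 7 was called in this pair. The cause was not tested. The remaining 2 compounds, 1-amino-2-methylanthraquinone and 1,2,3-trichloropropane, each had a scan day to themselves.

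No difference between carcinogens and non-carcinogens was called for these genes. With compound as a random block, limma called 0 of the 7 and 0 of all genes (0% of 11590), and at an unadjusted p under 0.05 there were 191 genes and 0 of the 7. The differences ran from -0.30 for Cxcl14 to 0.62 for Cxcl1. With the scan day as the block in place of the compound, which treats rats of 1 compound as separate examples of a class, 807 genes were called. Crp (0.38, adjusted p = 0.0113) and Orm1 (0.47, adjusted p = 0.0373) were among them.

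Within the set, Hp, Lbp and Orm1 shared the high values under 1-amino-2-methylanthraquinone. Over the 24 rats, which share slides and compounds in groups of 4, Hp and Lbp had r = 0.82 and rho = 0.39, and r = 0.69 after each compound's mean was taken out. Hp and Orm1 had r = 0.71, with 0.60 within compounds. Hp and Fgb had r = 0.72 but 0.06 within compounds, so that pair was alike between compounds and not between rats. The chemokines were less alike, at r = 0.40 for Cxcl1 and Cxcl14. These coefficients are given as descriptions.

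The genes with the most similar pattern over the 24 rats were ranked by Pearson r among 4692 named genes. For Hp they were C9, C3 and C4bpa (each r = 0.92), which are complement components or a regulator of complement. For Fgb they were Fgg (0.90) and Fga (0.89), the other fibrinogen chains, and Sarnp (0.87). For Lbp they were Cr1l (0.94), Neurl3 (0.92) and Tf (0.92).

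Orm1 was closest to Gstm4 (0.87), Ccng1 (0.87) and Dcaf11 (0.86). Crp was closest to Ahsp (0.85), Add2 (0.84) and Hbb (0.81), all expressed in red blood cells or their precursors, and under monuron Ahsp averaged 1.05 and Hbb 1.64. Whether blood or blood-forming cells have a part in the Crp values was not tested. Cxcl14 was closest to Spry1 (0.81), Brcc3 (0.80) and Tmem106b (0.79). For Cxcl1 the highest values were lower, with Pam at 0.74 and Plat and Col14a1 at 0.70.

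Other positive acute phase proteins, a list of 35 genes of which 26 were measured, had between 10 and 22 of the 26 called lower than vehicle. Of all genes, 21.8% to 31.1% were called lower. Under 1,2-dichlorobenzene 22 of 26 were called lower and none higher (median -0.53, all genes -0.01), beside 26.6% of all genes lower. The largest decreases were those of Itih4, an inter-alpha-trypsin inhibitor heavy chain (-1.03 ± 0.20, n = 4, adjusted p = 1.23e-09), and C3, the central complement component (-1.02 ± 0.14, adjusted p = 1.09e-09). Under 1-amino-2-methylanthraquinone 8 were higher and 10 lower, beside 27.7% and 31.1% of all genes, with 11 and 4 in the scanner's ratios and 2 and 23 under median centring.

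Vtn, the adhesive plasma protein vitronectin, fell under all 6 compounds, from -0.48 after 1,2,3-trichloropropane to -0.98 ± 0.29 after tetracycline (adjusted p = 1.71e-08). A dye effect common to all arrays stays in this shared decrease. Under tetracycline the Vtn difference from the other 5 compounds was -0.30 (limma adjusted p = 0.0102). Hmox1, the haem-degrading enzyme haem oxygenase 1, rose under monuron (0.94 ± 0.40, adjusted p = 1.27e-05) and fell under 1,2,3-trichloropropane (-0.37, adjusted p = 0.0328).

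Against the other compounds, 17 of the 26 positive acute phase genes were higher and 1 lower under 1-amino-2-methylanthraquinone (median 0.30, all genes 0.00), beside 48.4% of all genes called in either direction. With median centring this fell to 6 higher and 4 lower (median 0.01, all genes -0.06), and with the scanner's ratios it was 16 and 1. Under 1,2-dichlorobenzene none was higher and 17 were lower (median -0.31), beside 31% of all genes in either direction, with 2 lower under median centring and 15 with the scanner's ratios. The split between these compounds thus matched that of Hp in direction with loess and with the scanner's ratios. With median centring little of it was left.

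Negative acute phase proteins, 16 of 18 measured, were lower than vehicle under every compound, with 10 to 15 of the 16 called lower and at most 1 called higher. Of all genes, 21.8% to 31.1% were called lower and 15.7% to 27.7% higher. With the scanner's ratios 5 to 13 were lower and up to 4 higher. Apoa2, an apolipoprotein of high-density lipoprotein, fell under 1-amino-2-methylanthraquinone (-1.85 ± 0.45, adjusted p = 1.21e-10), as did Fetub, fetuin B (-1.40 ± 0.27, adjusted p = 4.88e-12). Mug1, a murinoglobulin protease inhibitor, fell under monuron (-1.35 ± 0.16, adjusted p = 1.17e-08) and under 1,2-dichlorobenzene (-1.29, adjusted p = 1.01e-08). Ambp, the precursor of alpha-1-microglobulin, fell under all 6 compounds, from -0.78 after 1-amino-2-methylanthraquinone to -1.08 ± 0.04 after monuron (adjusted p = 8.20e-12). Ambp under monuron was not called against the other 5 compounds (-0.15, limma adjusted p = 0.0823). A dye effect common to all arrays stays in decreases shared by all 6 compounds. Against the other compounds, 10 of the 16 were lower and 4 higher under 1-amino-2-methylanthraquinone (median -0.29), beside 48.4% of all genes called in either direction. Under tetracycline 10 were higher and 1 lower (median 0.25), beside 32.8% of all genes.

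**Figure D3:**
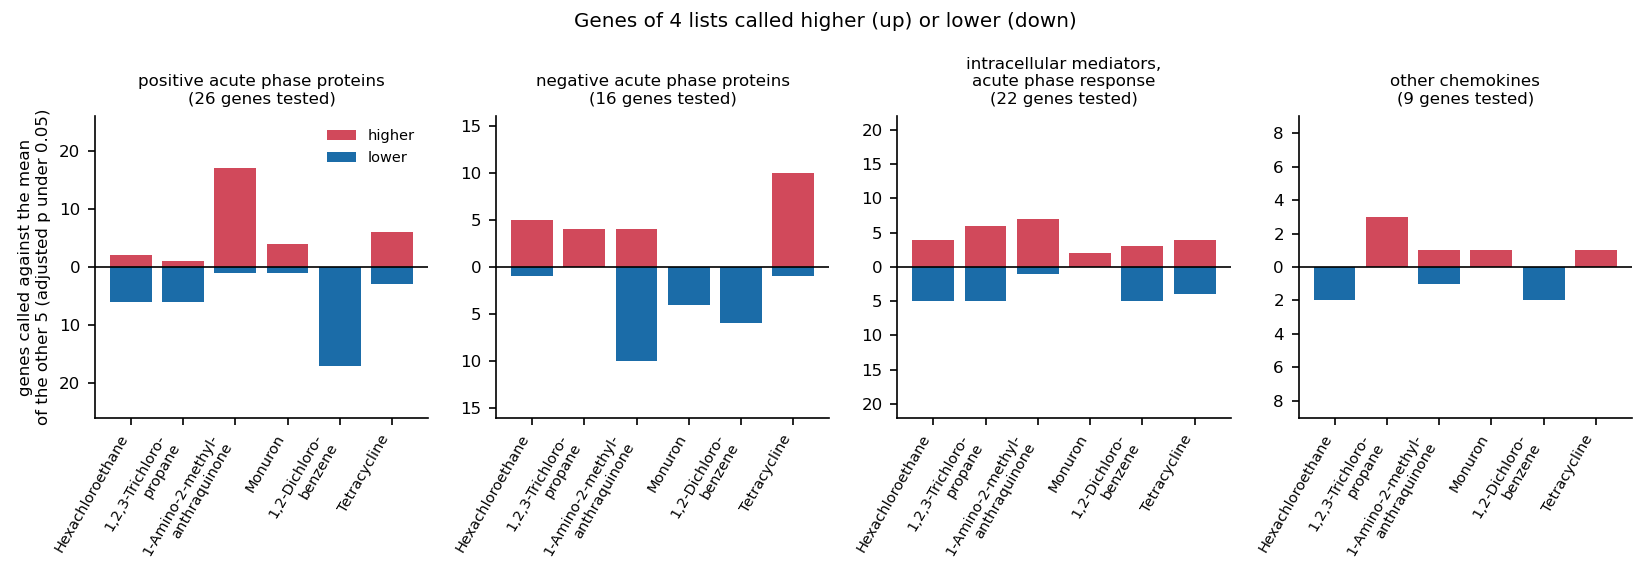
Number of measured genes called higher (bars above 0) and lower (bars below 0) than the mean of the other 5 compounds (y axis, genes; adjusted p under 0.05), by compound (x axis), for 4 of the lists: positive and negative acute phase proteins, intracellular mediators and other chemokines. Positive acute phase proteins were higher under 1-amino-2-methylanthraquinone (17 of 26, 6 with median centring) and lower under 1,2-dichlorobenzene (17 of 26, 2 with median centring). Of all genes, 48.4% and 31% were called in either direction in these comparisons.

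Of the cytokines and receptors that start the response, 14 of 20 were measured. Cd14, the co-receptor that takes lipopolysaccharide from Lbp, rose under 1,2,3-trichloropropane (0.78 ± 0.29, adjusted p = 8.18e-05), a call lost with median centring (0.24, adjusted p = 0.186). Il1b, which encodes interleukin 1 beta, rose under monuron (0.44 ± 0.24, adjusted p = 0.0223), a call also lost there (0.20, adjusted p = 0.228). Tnfrsf1b, a tumour necrosis factor receptor (-0.69 ± 0.12, adjusted p = 2.69e-07), and Il6r, the interleukin 6 receptor (-0.46 ± 0.30, adjusted p = 0.0057), fell under 1,2-dichlorobenzene. Against the other 5 compounds Tnfrsf1b was called lower there (-0.46, limma adjusted p = 3.39e-04) and Il6r was not called (-0.28, adjusted p = 0.152).

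Among 22 intracellular mediators, Gadd45g, a stress-inducible growth arrest gene, fell under hexachloroethane (-2.19 ± 0.68, adjusted p = 1.26e-04). Egr1, an immediate early transcription factor, rose under tetracycline (1.80 ± 0.66, adjusted p = 2.50e-04). Nfkbia, the inhibitor of NF-kB and one of its targets, fell under 1,2,3-trichloropropane (-1.32 ± 0.18, adjusted p = 1.29e-05). Socs2, a suppressor of cytokine signalling, fell under 1,2-dichlorobenzene (-1.25 ± 0.39, adjusted p = 0.00158), but was not called there against the other 5 compounds (-0.79, limma adjusted p = 0.0739).

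Of the other chemokines 9 were measured. At most 1 of them (3 with median centring) was called higher than vehicle under any compound, beside 15.7% to 27.7% of all genes. Cx3cl1, or fractalkine, rose under 1-amino-2-methylanthraquinone (0.77 ± 0.46, adjusted p = 9.78e-06), while Cxcl12, the ligand of CXCR4, fell there (-0.70 ± 0.37, adjusted p = 5.57e-06). Ccl5 fell under hexachloroethane (-0.60 ± 0.22, adjusted p = 4.18e-05). Cxcl13, a B cell attractant, was not well above background in the rats given 1,2-dichlorobenzene. By its loess signals it was at least 1.59-fold lower there (adjusted p = 1.48e-05), a bound that holds for loess only. The log2 ratio was -0.72 after loess, -0.53 when arrays were median-centred and -2.17 as computed by the scanner, so the size of this decrease is not settled.

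Of the 7 chemokine receptors measured, Cxcr4 (0.40 ± 0.25, adjusted p = 9.77e-05) and Ccr1 (0.28 ± 0.06, adjusted p = 8.66e-06) rose under 1-amino-2-methylanthraquinone. The scavenging receptor Ackr4 fell under 1,2,3-trichloropropane (-0.34 ± 0.24, adjusted p = 0.0097). With the scanner's ratios the same values were 0.86 for Cxcr4, 0.51 for Ccr1 and -0.66 for Ackr4.

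Of 13 coagulation and fibrinolysis factors, F2 (prothrombin, -0.81 ± 0.18, adjusted p = 5.99e-11) and Serpinc1 (antithrombin, -0.81 ± 0.08, adjusted p = 8.61e-13) fell under 1-amino-2-methylanthraquinone. Against the other 5 compounds the differences were smaller, -0.24 for F2 (limma adjusted p = 0.00147) and -0.44 for Serpinc1 (adjusted p = 5.67e-08). Fgb was near 0 there at the probe that stands for it, but -0.42 at the other probe named by the rule. With median centring it turned below 0. Serpind1, heparin cofactor II, fell under hexachloroethane (-0.73 ± 0.02, adjusted p = 1.66e-09). Klkb1, plasma prekallikrein, rose under 1,2,3-trichloropropane (0.47 ± 0.16, adjusted p = 1.13e-04), a direction that turned to -0.14 with median centring.

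Markers of other cell types moved with some of these results. Under 1-amino-2-methylanthraquinone the mean of the 5 bile duct markers measured (of 8) was 1.73, from 1.34 to 1.93 over the rats, against -0.05 to 0.23 under the other compounds. Of 12 neutrophil markers, 3 were on the array and S100a8 alone passed the filter; its ratios there were 0.84, 0.67, 0.15 and 0.56 (adjusted p = 2.65e-05). The rat with the lowest S100a8 value was rat 3, as for Lbp, Hp and Orm1, while Cxcl1 was lowest in rat 2 and Crp, Fgb and Cxcl14 in rat 4. Rat 3 also had the lowest mean of the Kupffer cell and macrophage markers there (-0.14). Of 8 stellate cell and fibroblast markers measured, 5 were higher and 1 lower under 1-amino-2-methylanthraquinone than under the other 5 compounds (median 0.41, all genes 0.00). In that comparison 48.4% of all genes were called in either direction. Under hexachloroethane 2 of these markers were higher and 3 lower than under the others (median -0.02), beside 28.4% of all genes called in either direction. Dcn (-1.05) and Lum (-1.01) were the 2 past 2-fold. With median centring none of the markers was higher and 3 were lower. Of 6 lymphocyte markers, 3 were higher and none lower under 1,2,3-trichloropropane than under the other 5 compounds (median 0.21), beside 30.6% of all genes called in either direction. The part of these cells in the Lbp, Hp, Orm1, Cxcl14 and Cxcl1 values was not tested.

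The 6 Kupffer cell and macrophage markers measured (of 12) had a mean of 0.41 under monuron, with 0.84, 0.40, 0.20 and 0.19 in its rats, and of -0.25 under 1,2,3-trichloropropane, with -0.10, -0.59, -0.29 and -0.01. S100a8 had a mean of -0.13 there. The part of these cells in the Cxcl1 values was not tested. Hepatocyte markers averaged between -0.52 (1,2-dichlorobenzene) and -0.26 (1-amino-2-methylanthraquinone and tetracycline). At the lowest list mean, 1,2-dichlorobenzene had Hp at -1.23, Fgb at -0.64 and Crp at -0.77. At the highest, tetracycline had -0.67, -0.04 and -0.98 for these genes, and 1-amino-2-methylanthraquinone 0.22, 0.07 and -0.62. The part of hepatocytes in the Hp, Fgb and Crp values was not tested. Alb, Ttr, Apoa1, Tf and Ahsg are on both the hepatocyte and the negative acute phase list.

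**Figure D4:**
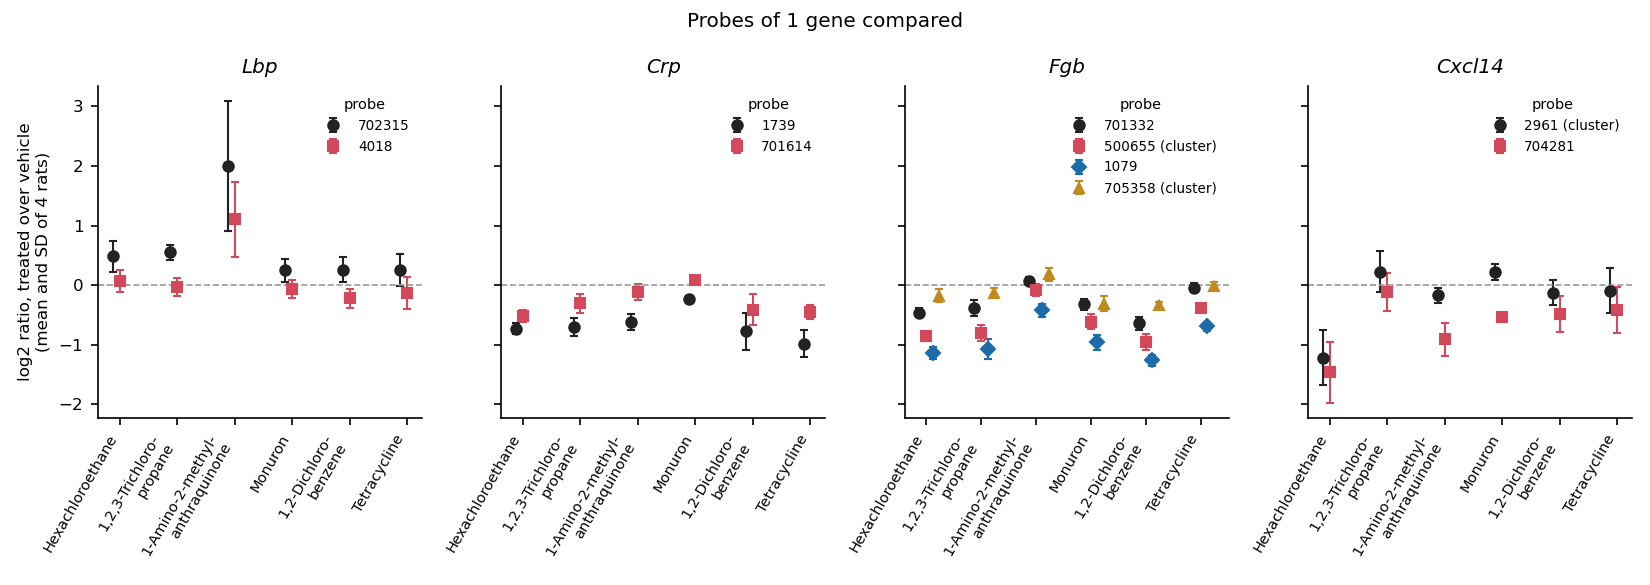
Mean log2 ratio of treated over vehicle signal (y axis; bars give the SD of 4 rats) by compound (x axis) for the probes of Lbp, Crp, Fgb and Cxcl14, 1 symbol per probe; those marked cluster were tied to the gene by UniGene cluster alone. The probes shown for a gene follow each other at different offsets (probes of Crp and Cxcl14 not well above background in treated RNA are left out), which move some means across 0, as for Crp under monuron (-0.23 and 0.09) and Fgb under 1-amino-2-methylanthraquinone (0.07 and -0.42); of these, Fgb at 0.07 also turns below 0 with median centring and Crp at -0.23 above 0 with the scanner's ratios.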

How the data were processed

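Liver RNA of 24 treated rats, each against pooled vehicle RNA, was read on Agilent 2-colour arrays with 21900 probes in 2 spots each. Per the file headers and the submitters' processing notes, Agilent Feature Extraction 9.1.3.1 gave spot and background intensity values per channel and its own log10 ratio; the deposited series table holds the authors' log2 values. Intensities were corrected with normexp (offset 50) and loess within arrays in limma 3.58.1 (R 4.3.3). Control spots and outlier spots (0 to 74 per array) were left out, spots of a probe averaged, and ratios turned to treated over vehicle.

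A probe was kept (16085 in all) if, under some compound, its treated or its vehicle signal passed the scanner's background flag on all 4 arrays, and the brightest probe stood for a gene (11590 genes, 5059 with a symbol). One mean per compound was fitted with lmFit and eBayes over all arrays (18 residual degrees of freedom), with Benjamini-Hochberg adjustment. The number of arrays limits the precision. The script was tested on simulated data.

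Probe names of the array design were updated through RefSeq: 6195 probes by current symbol, 1915 by older symbol, 902 by RefSeq record and 621 by gene ID. Promoters matched 5 of the 8 genes. Same-numbered rats of different compounds were not paired (median r = 0.037 over 60 pairs). The genes named are the 8 members, up to 4 called genes per list with the largest change, and the 3 genes most like each member. One gene that this rule names is not reported here. Members and lists were chosen with earlier results of these data known. Alternatives were median centring, the scanner's log10 ratio, the series table, no dim filter, the mean of a gene's probes, a replicate block, own arrays only, the scan day and leaving out each rat.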

Additional observations from a re-analysis of the deposited data

How the results depend on the processing

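Of 1603 alternative values for the genes named, 1483 kept their direction and their side of the threshold, 52 lost a call, 30 gained one and 38 changed direction. Leaving out dim probes or not changed 1 of 133 values. The replicate block kept 129 of 133 on the same side and added 4 calls: Lbp under 1,2,3-trichloropropane (adjusted p = 0.0434), Hp under 1-amino-2-methylanthraquinone (0.0473), and, against the other 5, Cxcl1 under hexachloroethane (0.0278) and 1,2-dichlorobenzene (0.047). Median centring, which leaves signal-dependent dye bias in the ratios, raised the genes called against vehicle to 9820 for hexachloroethane (2695 higher, 7125 lower), 9680 for 1,2,3-trichloropropane (2850, 6830), 9424 for monuron (2698, 6726) and 9111 for tetracycline (2682, 6429); 1-amino-2-methylanthraquinone had 2851 and 7073, and 1,2-dichlorobenzene 2597 and 6262. It lowered them to 1386 for monuron against the other 5, 1311 for hexachloroethane against tetracycline (226 higher, 1085 lower; 962 and 1055 with loess) and 1460 for monuron against 1,2-dichlorobenzene. It left 1 member called for hexachloroethane, 1 for 1,2-dichlorobenzene and 1 for tetracycline against the other 5, and 0 for monuron against 1,2-dichlorobenzene. Values that changed direction against vehicle with median centring were Lbp under hexachloroethane (-0.09), monuron (-0.22), 1,2-dichlorobenzene (-0.13) and tetracycline (-0.15), Hp (-1.13), Orm1 (-0.29) and Fgb (-1.28) under 1-amino-2-methylanthraquinone, Orm1 under monuron (-0.43) and Klkb1 under 1,2,3-trichloropropane (-0.14). Against the other 5 they were Crp under 1,2,3-trichloropropane (0.01), 1-amino-2-methylanthraquinone (-0.26) and 1,2-dichlorobenzene (0.06); for hexachloroethane against tetracycline Hp (-0.24), Orm1 (-0.01) and Crp (-0.09); for the carcinogen classes Fgb (-0.20). The mean of a gene's probes named by the rule turned Fgb under 1-amino-2-methylanthraquinone (-0.18) and Lbp for monuron against 1,2-dichlorobenzene (0.07). The scanner's ratios turned Crp under monuron (0.05), Fgb under tetracycline (0.20), and, against the other 5, Cxcl1 under monuron (0.03) and Hp under tetracycline (-0.01); the series table turned the first 3 (0.04, 0.22 and 0.02) and Hp for hexachloroethane against tetracycline (-0.04). Both left 3 members called for monuron against vehicle. A spread from the 4 own arrays gave 3100 genes for hexachloroethane. The scan day as block gave 807 genes and 2 members for the carcinogen classes, with Fgb at -0.02; it could not be fitted beside compound means. Leaving out 1 rat gave 3 to 4 members for 1,2-dichlorobenzene against vehicle and 1326 to 2599 genes for hexachloroethane against tetracycline. It moved values near 0 across it: Cxcl1 under 1,2-dichlorobenzene against vehicle (-0.33 to 0.00); against the other 5, Crp under 1,2,3-trichloropropane (-0.08 to 0.03) and 1,2-dichlorobenzene (-0.20 to 0.02), Cxcl1 (-0.39 to 0.24) and Fgb (-0.05 to 0.01) under monuron and Hp under tetracycline (-0.10 to 0.11); and, for monuron against 1,2-dichlorobenzene, Lbp (-0.10 to 0.08) and Cxcl14 (-0.14 to 0.09). The cause was not tested.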
